A study of Mus musculus with 6 samples.

Results

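Histone lysine methyltransferases, demethylases and shared complex subunits were compared between R206H and wild-type mouse embryonic fibroblasts, mixed cells grown out of embryos. The 43 genes were chosen by symbol from the 49315 genes of the deposited table, and each had 1 row. They comprised 23 methyltransferases (writers), 16 demethylases (erasers) and 4 subunits of H3K4 methyltransferase complexes. All 43 passed the filter on low values.

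The R206H libraries came from Acvr1R206H/+ fibroblasts, which carry 1 mutant and 1 normal copy of Acvr1, and the wild-type libraries from Acvr1+/+ fibroblasts. The product of Acvr1 is a receptor of bone morphogenetic protein (BMP) signals, and R206H is the amino acid change behind fibrodysplasia ossificans progressiva, a disease of bone formation in soft tissue. Cells of both genotypes were isolated from E13.5 embryos, grown with 10% fetal bovine serum and harvested at passage 0 after 2 days in culture. Each genotype had 3 libraries of rRNA-depleted total RNA, described by the submitters as biological replicates. The labels do not say whether a library came from 1 embryo or a pool, nor whether embryos shared a litter. The series title sets the comparison in the context of BMP and mechanical signalling, chromatin and bone formation.

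Lysine methylation of histones is written by enzymes with a SET domain, and by Dot1l, which has none. It is removed by flavin-dependent amine oxidases (Kdm1a and Kdm1b) or by Jumonji-domain oxygenases. Methylation of H3K4 marks active promoters and enhancers, H3K36 and H3K79 methylation marks transcribed genes, and H3K9 and H3K27 methylation marks silenced chromatin. In mesenchymal cells these enzymes are known for their part in lineage choice.

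Values were TPM (a transcript's share of the library, already divided by gene length). Rebuilt read totals were 17800000 to 21700000 in R206H libraries and 17500000 to 24600000 in wild-type libraries. The libraries separated by genotype on the first principal component, with 40.8% of the variance, while wild-type library 1 lay far from the other 5 on the second, with 19.3%. Fibroblast markers summed to 10783 to 13263 TPM in R206H libraries and 7083 to 9192 TPM in wild-type libraries. In the same libraries 9 epithelial markers summed to 177 to 363 TPM in R206H and 506 to 539 TPM in wild type, with 1 of the 9, Esrp1, under 1 TPM in all libraries. The 10 proliferation markers summed to 1206 to 1273 TPM in R206H and 1313 to 1495 TPM in wild type. All 10 had a negative log2 change, where 53.6% of all genes tested had a positive one. None of the 10 passed the adjusted limma threshold given below. At an unadjusted limma p under 0.05 there were 5, all lower, against 11.7% of all genes. Of 5 macrophage and blood markers, summing to 16.3 to 23.1 TPM in R206H and 15.5 to 17.5 TPM in wild type, Hba-a1 was listed at 0 throughout. Neural markers summed to 84.6 to 94.3 TPM in R206H and 64.4 to 76.9 TPM in wild type, endothelial markers to 8.19 to 13.54 TPM and 13.6 to 28.0 TPM, and muscle markers to 131 to 253 TPM and 187 to 194 TPM. The blood and muscle sums overlapped between genotypes and the others did not, and their part in the results below was not tested. In bulk RNA, fewer cells of a type and less RNA per cell cannot be told apart.

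All 43 genes were expressed. The median member had 28.7 TPM, against 16.4 TPM for the median of all 14818 genes tested, and 29 of the 43 lay above that median of all genes. The highest level was that of Ehmt2 (G9a), which places mono- and dimethyl marks on H3K9, at 142, 138 and 172 TPM in R206H libraries 1, 2 and 3 and 151, 135 and 143 TPM in wild-type libraries 1, 2 and 3. The lowest was that of Smyd3, a methyltransferase of cytoplasmic and histone substrates, at 3.20, 3.27 and 2.95 TPM in R206H and 3.92, 3.77 and 3.73 TPM in wild type. Among erasers the range ran from Kdm7a to Kdm5c, and among subunits from Rbbp5 to Men1. Together the 43 genes took 0.131% to 0.151% of all TPM. Members were long, with a median exon length of 8969 nt against 4455 nt for protein-coding genes tested. Each library held at least 117 rebuilt reads of each member.

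No writer, eraser or subunit passed the threshold of an adjusted p of 0.05 in R206H against wild type (limma on log2(TPM + 1), adjusted over all genes), where 2.04% of all genes did, 1.26% higher and 0.79% lower. At an unadjusted limma p under 0.05 there were 9 of 43, 5 higher and 4 lower in R206H, or 20.9% against 26.1% of all genes (14.4% higher and 11.7% lower). The groups did not overlap for 11 of 43, 5 higher and 6 lower, or 25.6% against 32.9% of all genes (17.9% higher and 15% lower). Limma voom on rebuilt reads called 4 of 43, 1 higher and 3 lower, or 9.30% against 8.73% of all genes (4.61% higher and 4.12% lower). Each of these shares lay near or under its background. The median log2 change was 0.06, against 0.02 for all genes tested.

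Changes were small. The log2 changes (R206H minus wild type) ran from -0.30 to 0.50, and 36 of 43 members had a 95% interval lying wholly within a change of 1.5 times in either direction. The widest bounds were -0.53 for Smyd3 and 0.83 for Kdm5b. The highest library was at most 1.85 times the lowest for any member. With 3 against 3 libraries the exact two-sided permutation p cannot go under 0.1, and every member whose groups did not overlap had this value. Without wild-type library 1 the groups did not overlap for 23 of 43 (48.6% of all genes), and without R206H library 1 for 18 (46.9% of all genes). Without wild-type library 2 the count at an unadjusted p under 0.05 was 5 of 43 (19.1% of all genes), and the median of the members was -0.0076.

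**Figure D1:**
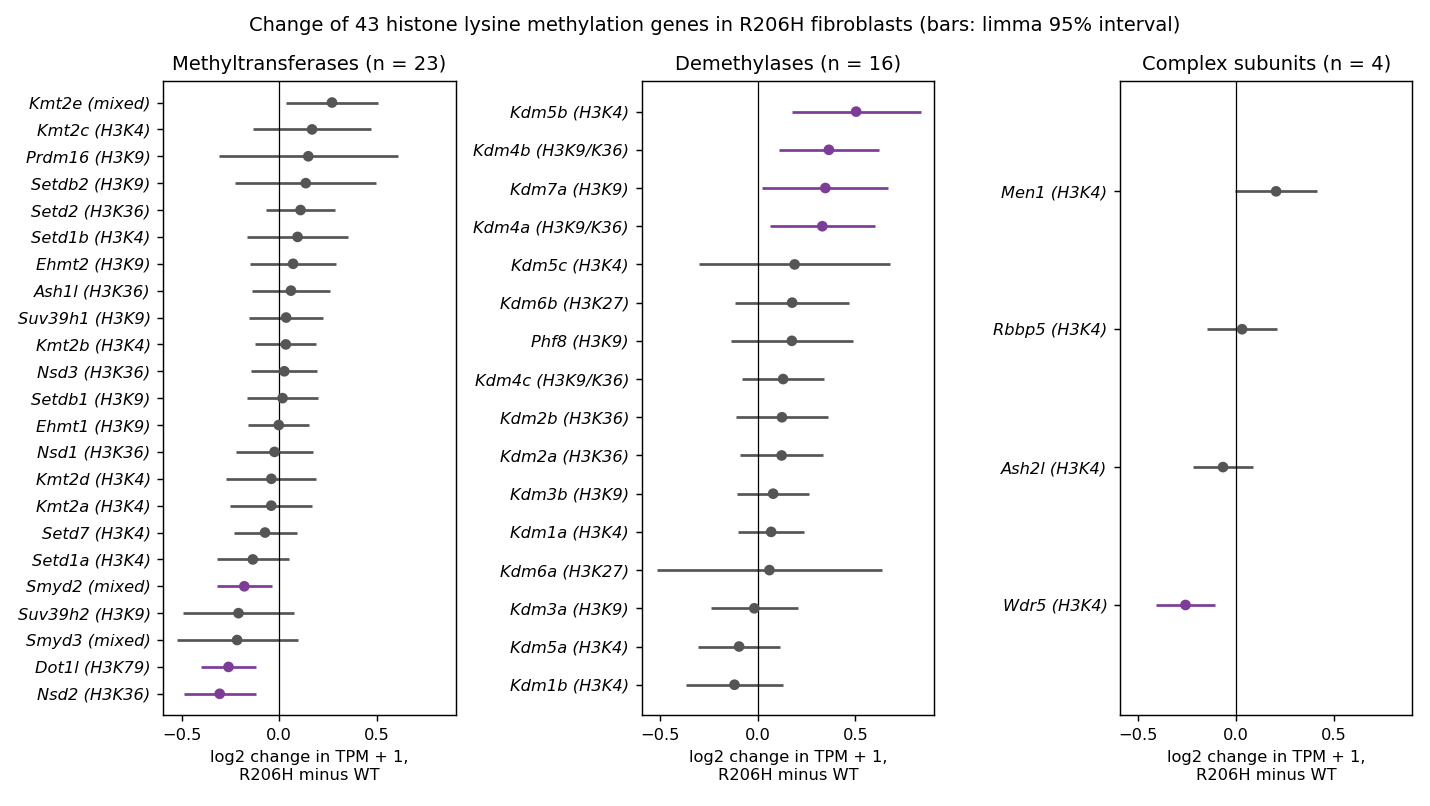
Log2 change of TPM + 1 in R206H minus wild type on the horizontal axis for the 23 methyltransferases, 16 demethylases and 4 complex subunits, with the histone residue in brackets; points are limma estimates, bars 95% intervals, and purple marks members with an unadjusted p under 0.05 and groups that do not overlap. The 4 purple demethylases lie to the right of 0, and the 3 purple methyltransferases and Wdr5 to the left.

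Among the writers, 12 of 23 log2 changes were positive and 11 negative, with a median of 0.02. The median of all genes tested was 0.02 too. Under median-of-ratios scaling the writers had -0.0090 and all genes -0.0020, and with voom the writers had -0.0075 and all genes -0.0013. The 5 writers whose groups did not overlap were all lower in R206H, as were 15% of all genes tested. They were Dot1l, Nsd2, Smyd2, Setd1a and Smyd3. Kmt2e alone had an unadjusted p under 0.05 upward.

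Dot1l, the enzyme that methylates H3K79 (ENSMUSG00000061589, chromosome 10, 80755206 to 80795461, + strand, GRCm38), had the smallest limma p of the 43. It had 46.0, 42.9 and 42.95 TPM in R206H libraries 1, 2 and 3, against 54.4, 50.8 and 53.1 TPM in wild-type libraries 1, 2 and 3. Every R206H library lay under every wild-type library, with means of 43.9 ± 1.76 and 52.8 ± 1.82 TPM (SD, n = 3 each). The log2 change was -0.26 (SE 0.060) and did not pass with limma (adjusted p = 0.0671), but did with voom (adjusted p = 0.0297). With each library left out in turn the limma adjusted p was 0.0626 to 0.208. The 5 genes whose levels followed Dot1l most closely over the 6 libraries were Cyp1a1, Cnot9, Cad, Sh2d5 and Ccdc88c, with Pearson r of 0.998, 0.997, 0.995, 0.994 and 0.994. These correlations describe 6 points that share the difference between genotypes, and take no account of its size. Mean TPM in R206H and wild type was 0.498 and 7.445 for Cyp1a1, 55.1 and 60.2 for Cnot9, and 96.1 and 120.9 for Cad. For Sh2d5 it was 1.84 and 4.46, and for Ccdc88c 1.19 and 2.87.

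Of the 5 H3K36 writers, Nsd2, which places the dimethyl mark, had 25.6, 27.4 and 23.2 TPM in R206H libraries, against 31.0, 32.1 and 31.5 TPM in wild-type libraries. The groups did not overlap, and wild-type libraries differed by little more than 1 TPM. Its log2 change was -0.30 (SE 0.078), with a limma adjusted p of 0.0776 and a voom adjusted p of 0.0295. Nelfa overlaps Nsd2 in the annotation, and reads of the overlap may be split between them. The related enzymes did not share this difference in size. Nsd1 had 37.8 ± 1.04 TPM in R206H and 38.6 ± 4.07 TPM in wild type, and Nsd3 20.5 ± 0.273 and 20.1 ± 0.981 TPM (SD, n = 3 each). Setd2, which makes the trimethyl mark, and Ash1l, an H3K36 dimethyltransferase, had log2 changes of 0.11 and 0.06 that did not pass (limma adjusted p = 0.403 and 0.697). Whether Nsd2 differs from these was not tested.

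The 7 H3K4 writers had a median log2 change of -0.04 and none had an unadjusted p under 0.05. Setd1a, a catalytic subunit of the SET1 complexes that make most trimethylated H3K4, had 20.99, 24.2 and 24.02 TPM in R206H libraries and 25.7, 25.4 and 25.1 TPM in wild-type libraries. The groups did not overlap, but R206H library 1 lay apart from the others and the log2 change of -0.14 did not pass (limma adjusted p = 0.320). Its paralogue Setd1b had 16.5 ± 1.503 TPM in R206H and 15.4 ± 1.57 TPM in wild type. The 4 MLL-type writers had changes between -0.04 and 0.17. Kmt2a, a regulator of Hox genes, had 23.9 ± 1.42 and 24.6 ± 2.24 TPM, Kmt2b 38.1 ± 0.99 and 37.2 ± 2.07 TPM. Kmt2c and Kmt2d, which monomethylate H3K4 at enhancers, had 7.43 ± 0.30 and 6.54 ± 0.96 TPM, and 31.1 ± 1.57 and 32.2 ± 3.77 TPM, with R206H given before wild type for each gene. Setd7, which also methylates many proteins other than histones, had a change of -0.07.

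The 7 H3K9 writers had a median log2 change of 0.03, and the groups overlapped in all 7. Ehmt2 exceeded its partner Ehmt1 (GLP) 4.36, 3.94 and 5.07 times in R206H libraries and 4.24, 4.08 and 4.32 times in wild-type libraries. Ehmt1 differed little between genotypes, at 33.9 ± 1.26 TPM in R206H and 33.99 ± 1.51 TPM in wild type. Of the heterochromatin enzymes, Suv39h1 had a log2 change of 0.03 and Suv39h2 one of -0.21 (limma adjusted p = 0.818 and 0.319). Setdb1, which silences retroelements, had 28.9 ± 1.17 TPM in R206H and 28.6 ± 2.07 TPM in wild type, and Setdb2 6.42 ± 0.71 and 5.79 ± 0.99 TPM. Prdm16, a regulator of brown fat fate with reported H3K9 activity, had 3.32, 3.24 and 5.26 TPM in R206H and 2.98, 3.55 and 3.66 TPM in wild type, so that only R206H library 3 stood above the wild-type range.

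The 3 remaining writers have mixed or uncertain histone targets. Smyd2, which methylates p53 and other proteins, had 66.3, 67.8 and 61.9 TPM in R206H libraries, against 75.6, 75.2 and 71.5 TPM in wild-type libraries. Its groups did not overlap, and its log2 change was -0.18 (SE 0.059, limma adjusted p = 0.122, voom adjusted p = 0.0892). The annotated gene Gm37422 overlaps it. Smyd3, given above, had a log2 change of -0.22, with all R206H libraries under all wild-type libraries and a limma adjusted p of 0.343. Kmt2e, a SET-domain protein without established histone methyltransferase activity, had 29.2, 34.7 and 33.8 TPM in R206H and 29.9, 25.2 and 25.5 TPM in wild type. R206H library 1 and wild-type library 1 overlapped, and the log2 change of 0.27 did not pass (limma adjusted p = 0.149). Srpk2 and Gm25219 overlap Kmt2e.

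Among the erasers, 13 of 16 log2 changes were positive, or 81.2% against 53.6% of all genes tested, with a median of 0.13. Under median-of-ratios scaling 13 of 16 were positive too, and with a library left out 11 to 14. The 4 erasers whose groups did not overlap, Kdm5b, Kdm4b, Kdm4a and Kdm7a, were all higher in R206H, as were 17.9% of all genes tested. The 3 negative values, of Kdm1b, Kdm5a and Kdm3a, were -0.12, -0.10 and -0.02.

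Kdm5b, which removes di- and trimethyl marks from H3K4 (ENSMUSG00000042207, chromosome 1), had the largest change of the 43. It had 18.5, 20.5 and 20.7 TPM in R206H libraries, against 17.1, 12.9 and 11.7 TPM in wild-type libraries. The groups did not overlap, although wild-type library 1 lay closer to the R206H libraries than to the other wild-type libraries. The means were 19.9 ± 1.19 and 13.9 ± 2.86 TPM, a ratio of 1.43, and the log2 change was 0.50 (SE 0.140). It did not pass with limma (adjusted p = 0.0887) and did with voom (adjusted p = 0.0351). Without wild-type library 1 the log2 change was 0.65 and passed with limma (adjusted p = 0.0470), over a range of 0.0470 to 0.244 with each library left out.

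The other H3K4 erasers did not follow Kdm5b in size. Kdm1a (LSD1), which works in the CoREST corepressor complex, had 70.9 ± 4.96 TPM in R206H and 67.5 ± 3.33 TPM in wild type (log2 change 0.07), and its relative Kdm1b 11.2 ± 0.62 and 12.3 ± 1.27 TPM. Kdm5a had 12.8 ± 0.95 and 13.7 ± 0.49 TPM. Kdm5c, the most abundant of the 16 erasers, is described with the X-linked genes.

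The 3 Kdm4 erasers, which act on trimethylated H3K9 and H3K36, were all higher in R206H on average, with a median log2 change of 0.33. Kdm4a had 67.2, 72.8 and 89.9 TPM in R206H libraries, against 65.8, 57.0 and 58.5 TPM in wild-type libraries. R206H library 3 stood highest, while R206H library 1 exceeded wild-type library 1 by little. Its log2 change was 0.33 (SE 0.115, limma adjusted p = 0.134, voom adjusted p = 0.0952). Kdm4b had 21.8, 22.98 and 27.3 TPM in R206H libraries, against 19.5, 16.6 and 19.0 TPM in wild-type libraries. Its groups did not overlap either, R206H library 3 was again the highest, and the log2 change was 0.36 (SE 0.109, limma adjusted p = 0.1004, voom adjusted p = 0.0712). Kdm4c had 14.5 ± 0.75 TPM in R206H and 13.1 ± 0.82 TPM in wild type, with groups that overlapped.

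Of the 4 other H3K9 erasers, Kdm7a, which also demethylates H3K27, had 3.94, 3.92 and 4.53 TPM in R206H libraries, against 3.20, 3.07 and 2.83 TPM in wild-type libraries. The groups did not overlap at this low level, which rested on 152 to 259 rebuilt reads per library. The log2 change of 0.35 (SE 0.137) had a limma adjusted p of 0.168 and a voom adjusted p of 0.0712. The annotated gene 4930599N23Rik overlaps Kdm7a. Phf8, a related enzyme encoded on the X chromosome, had a log2 change of 0.17, and Kdm3a and Kdm3b, which remove mono- and dimethyl marks from H3K9, had values of -0.02 and 0.08. The H3K36 erasers Kdm2a and Kdm2b, which bind unmethylated CpG DNA, both had 0.12. The H3K27 eraser Kdm6b had 47.4 ± 4.44 TPM in R206H and 42.0 ± 6.75 TPM in wild type (log2 change 0.18, limma adjusted p = 0.407).

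The 4 complex subunits had values in both directions. Wdr5, a scaffold shared by the H3K4 methyltransferase complexes and also found in other complexes (ENSMUSG00000026917, chromosome 2), had 54.2, 54.4 and 50.6 TPM in R206H libraries, against 67.6, 62.5 and 61.1 TPM in wild-type libraries. The groups did not overlap, and the log2 change was -0.26 (SE 0.064, limma adjusted p = 0.0731, voom adjusted p = 0.0388). Men1, which encodes menin, the partner of Kmt2a and Kmt2b, had 79.8, 80.7 and 96.0 TPM in R206H and 79.3, 72.6 and 69.8 TPM in wild type. These groups were separated by less than 1 TPM between R206H library 1 and wild-type library 1, and the log2 change of 0.20 did not pass (limma adjusted p = 0.202). The other core subunits differed little. Rbbp5 had 32.3, 32.1 and 34.6 TPM in R206H and 34.4, 29.8 and 32.9 TPM in wild type, and Ash2l had a log2 change of -0.07.

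**Figure D2:**
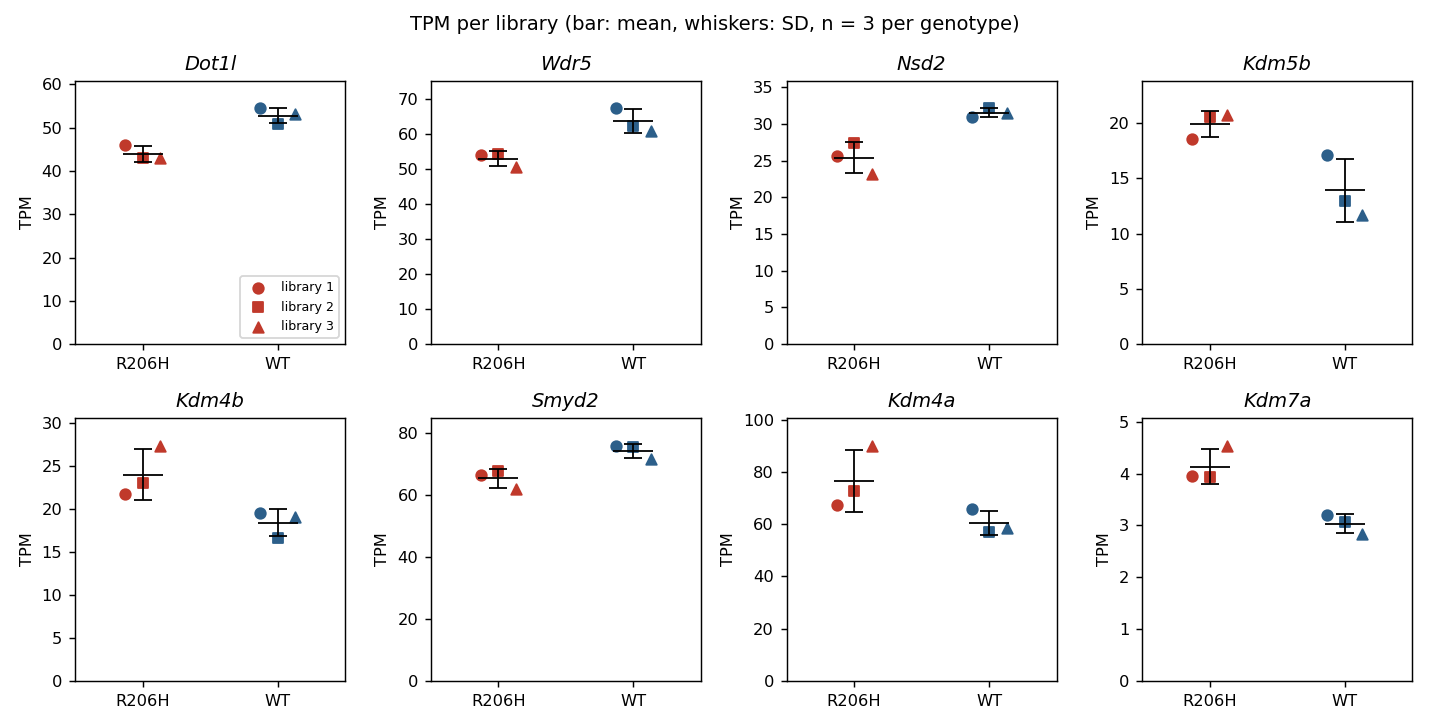
TPM on the vertical axis in each of 3 R206H and 3 wild-type libraries for the 8 members with an unadjusted limma p under 0.05 and groups that do not overlap; horizontal bars are means and whiskers SDs. Dot1l, Wdr5, Nsd2 and Smyd2 lie lower in R206H, and Kdm5b, Kdm4b, Kdm4a and Kdm7a higher, with R206H library 3 at the top for each of these 4.

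Set side by side, erasers had a median log2 change of 0.13 and writers one of 0.02, a difference of -0.11 for writers minus erasers that was given no test. With each library left out it ran from -0.19 to -0.08. Summed over their genes, the 16 erasers had 471, 469 and 540 TPM in R206H libraries 1, 2 and 3 and 487, 393 and 436 TPM in wild-type libraries 1, 2 and 3. The 23 writers had 705, 733 and 754 TPM in R206H and 782, 713 and 726 TPM in wild type. Both sums overlapped between genotypes, but their ratio did not. Eraser TPM over writer TPM was 0.668, 0.640 and 0.716 in R206H libraries and 0.623, 0.552 and 0.600 in wild-type libraries.

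By residue, only the 3 Kdm4 genes were set against the writers of H3K36 and H3K9, not all erasers of these residues. The ratio of the 3 Kdm4 genes to the 5 H3K36 writers had the largest ratio of genotype means of those computed. It was 0.719, 0.715 and 0.907 in R206H libraries, against 0.612, 0.606 and 0.614 in wild-type libraries, with R206H library 3 apart from the other R206H libraries. Against the 7 H3K9 writers the same 3 genes gave 0.406, 0.422 and 0.453 in R206H and 0.362, 0.346 and 0.352 in wild type. The erasers left out differed less. Kdm2a and Kdm2b of H3K36 summed to 43.1 ± 1.64 TPM in R206H and 39.5 ± 3.58 TPM in wild type. The 4 other H3K9 erasers summed to 70.3 ± 4.31 and 66.0 ± 4.48 TPM (SD, n = 3 each), and the groups overlapped for both sums. For H3K4 the 5 erasers over the 7 writers gave 1.25, 1.11 and 1.25 in R206H and 1.14, 1.01 and 1.09 in wild type, and the groups overlapped. Kdm5c made up 35.5% to 46.8% of the H3K4 eraser sum, and without it the ratio was 0.669, 0.702 and 0.666 in R206H and 0.620, 0.649 and 0.606 in wild type. These ratios are descriptions of transcript levels and share genes, so they are not separate results. Kdm4a and Kdm4b, shown above without overlap, are in several of them. How often ratios of other gene sets do not overlap was not computed. The sum of proliferation markers, lower in R206H as given above, moved beside these ratios.

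**Figure D3:**
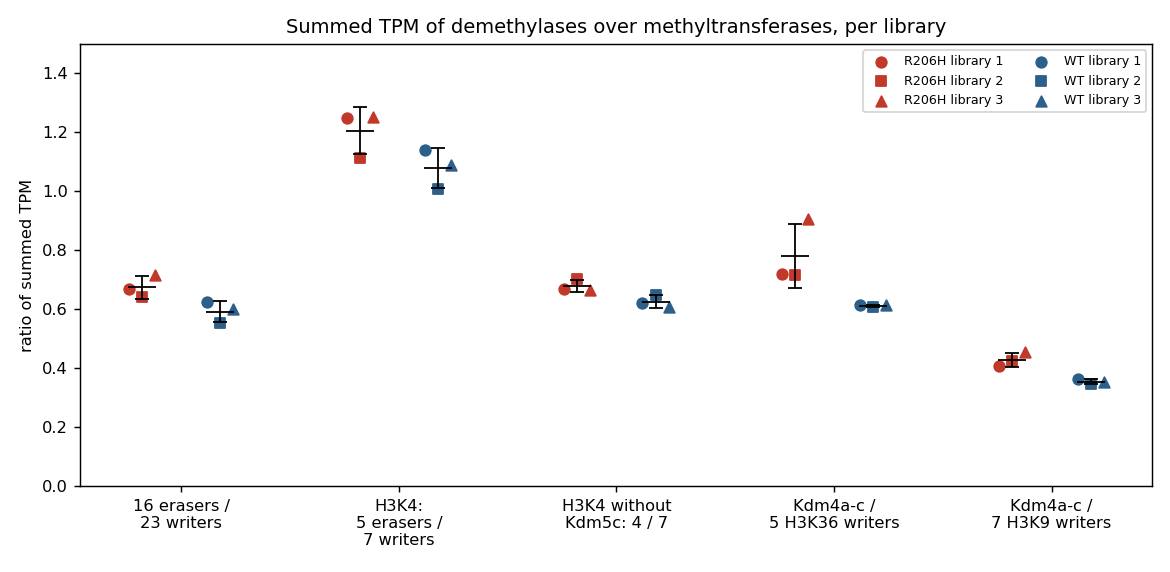
Ratio of the summed TPM of demethylases to that of methyltransferases on the vertical axis for 5 gene sets, with 3 R206H and 3 wild-type libraries each; horizontal bars are means and whiskers SDs. The H3K36 and H3K9 sets hold Kdm4a, Kdm4b and Kdm4c as their only demethylases. R206H libraries lie above wild-type libraries in 4 of the 5 sets, and overlap them for H3K4 with Kdm5c, where library 2 is the lowest in both genotypes. The 5 sets share genes and are not separate results.

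Of the 4 X-linked members, Kdm5c and Kdm6a differed more between libraries of 1 genotype than between genotypes. Kdm5c and Kdm6a are known to escape X inactivation and have the Y-linked homologues Kdm5d and Uty. Xist, the RNA of the inactive X chromosome, had 89.5, 0.012 and 110 TPM in R206H libraries 1, 2 and 3 and 96.9, 0 and 90.7 TPM in wild-type libraries 1, 2 and 3. The Y-linked gene Ddx3y had 52.2 TPM in R206H library 2 and 48.2 TPM in wild-type library 2, and was listed at 0 in the other 4. Library 2 of each genotype thus carried Y-linked RNA and almost no Xist, and the genotypes were balanced in this.

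Kdm5c had 93.4, 70.9 and 103 TPM in R206H libraries and 95.8, 57.4 and 83.0 TPM in wild-type libraries. Library 2 was the lowest in both genotypes, and the mean of libraries 1 and 3 was 1.38 times library 2 in R206H and 1.56 times in wild type. Kdm5d had 5.30 TPM in R206H library 2 and 4.33 TPM in wild-type library 2, so the sum of both genes, 76.2 and 61.7 TPM there, stayed under that of the other libraries. Kdm6a, an H3K27 demethylase, had 14.2, 9.80 and 16.9 TPM in R206H and 15.5, 9.15 and 14.5 TPM in wild type. Here libraries 1 and 3 averaged 1.59 times library 2 in R206H and 1.64 times in wild type. Uty had 4.99 and 4.82 TPM in R206H and wild-type library 2, and with it the sum reached 14.8 and 14.0 TPM, close to the Kdm6a level elsewhere.

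With all libraries the log2 change of Kdm5c was 0.19 with a 95% interval from -0.30 to 0.68, and that of Kdm6a 0.06 with one from -0.51 to 0.63. With the presence of Y-linked RNA as a covariate the intervals narrowed to -0.02 to 0.39 and -0.19 to 0.31, and neither passed (limma adjusted p = 0.233 and 0.753). The other X-linked members did not have library 2 as the lowest in both genotypes. Phf8 had 9.08, 8.85 and 10.6 TPM in R206H and 9.49, 8.47 and 7.04 TPM in wild type, and Suv39h1 had 35.4, 38.7 and 35.7 TPM in R206H and 35.6, 38.7 and 32.9 TPM in wild type.

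**Figure D4:**
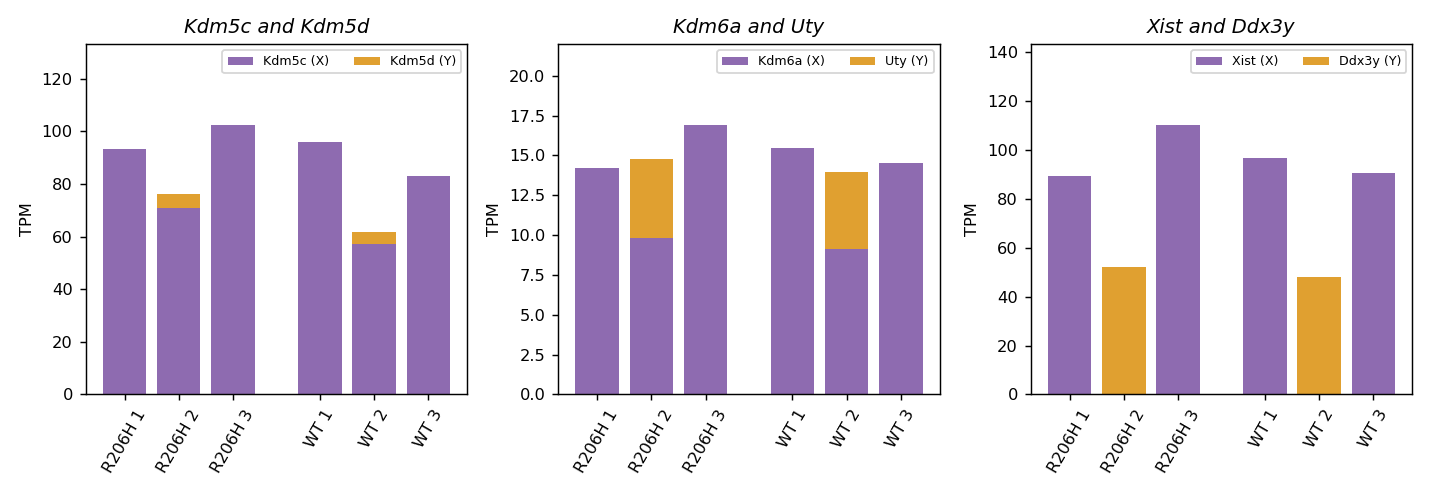
TPM per library on the vertical axis for Kdm5c and Kdm6a stacked with their Y-linked homologues Kdm5d and Uty, and for Xist stacked with Ddx3y, in R206H and wild-type libraries 1 to 3. Library 2 of each genotype has Y-linked RNA and less Kdm5c and Kdm6a, and Uty brings the Kdm6a sum close to that of the other libraries.

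The start regions of 4 of the 8 members shown by library are given to let their base composition be seen. They hold the 250 bases before the RefSeq start (GRCm38.p6), 5′ to 3′, with capitals marking the GC box GGGCGG on either strand.
Dot1l, chr10:80754953-80755202, + strand: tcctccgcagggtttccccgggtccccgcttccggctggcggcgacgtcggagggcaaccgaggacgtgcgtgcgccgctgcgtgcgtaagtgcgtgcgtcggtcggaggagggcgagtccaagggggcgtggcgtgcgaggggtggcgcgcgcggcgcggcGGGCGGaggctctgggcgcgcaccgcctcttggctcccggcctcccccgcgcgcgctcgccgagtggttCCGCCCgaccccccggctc
Wdr5, chr2:27514897-27515146, + strand: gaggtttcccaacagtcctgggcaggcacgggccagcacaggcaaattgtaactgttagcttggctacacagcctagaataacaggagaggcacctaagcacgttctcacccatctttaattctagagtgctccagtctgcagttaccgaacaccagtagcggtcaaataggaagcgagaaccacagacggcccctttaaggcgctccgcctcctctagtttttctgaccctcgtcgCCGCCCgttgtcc
Kdm5b, chr1:134559928-134560177, + strand: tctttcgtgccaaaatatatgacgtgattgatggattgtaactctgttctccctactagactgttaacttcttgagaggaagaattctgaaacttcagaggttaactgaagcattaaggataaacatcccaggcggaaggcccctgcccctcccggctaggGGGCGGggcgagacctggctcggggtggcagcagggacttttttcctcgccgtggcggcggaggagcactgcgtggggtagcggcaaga
Kdm4a, chr4:118180044-118180293, - strand: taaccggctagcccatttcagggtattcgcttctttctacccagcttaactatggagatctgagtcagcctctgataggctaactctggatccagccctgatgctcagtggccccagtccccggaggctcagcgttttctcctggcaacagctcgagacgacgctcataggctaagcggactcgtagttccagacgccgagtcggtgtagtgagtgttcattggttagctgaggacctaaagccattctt

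RefSeq start regions were at hand for 29 of the 43 members. Their median GC content was 60.4% against 52.0% over 27025 genes, and their median ratio of observed to expected CpG was 0.842 against 0.378. The GC box GGGCGG was present on either strand in 20 of 29, or 69.0% against 32.9% of all genes, and its letters follow GC content. It occurred 2 times in Dot1l and 1 time in Wdr5 and in Kdm5b, which are lower, lower and higher in R206H, and not in Kdm4a. Smyd2, lower in R206H, and Kdm7a, higher in R206H, had it 3 times each, and their sequences are not shown. Nsd2 and Kdm4b had no start region at hand. The element GGCGCC, a GC-rich sequence that BMP-regulated SMAD proteins bind, was present in 7 of 29, or 24.1% against 9.54% of all genes. Its letters follow GC content too. No comparison with genes of like GC and CpG content was made, so enrichment of this element was not tested. CCAAT was present in 10 of 29, or 34.5% against 34.5%. The ETS, NRF1 and YY1 motifs were present in 3, 0 and 1 of 29, or 10.3%, 0% and 3.45%. Their shares of all genes were 7.05%, 0.781% and 1.59%. Matches of different motifs were counted separately and may overlap.

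A further list held 49 genes: other enzymes of histone lysine methylation, related proteins such as Setd3, and partner proteins such as Hdac1 and Hdac2. Of these, 45 passed the filter and 1 passed the threshold with limma, where 2.04% of all genes did, a share near that background. This was Hmg20b, a subunit of the CoREST complex of Kdm1a, at 71.2 TPM in R206H and 55.7 TPM in wild type on average (log2 change 0.35, SE 0.064, limma adjusted p = 0.0498). At an unadjusted p under 0.05 there were 18 of 45, 5 higher and 13 lower, or 40.0% against 26.1% of all genes (14.4% higher and 11.7% lower). The smallest p-values after Hmg20b were those of Smyd5, Suz12, Kmt5a, Kmt5c and Setd3, and none passed with limma (limma adjusted p = 0.0760, 0.0770, 0.0779, 0.0926 and 0.0987). Voom called 4 of the 45, 1 higher and 3 lower, or 8.89% against 8.73% of all genes (4.61% higher and 4.12% lower). They were Hmg20b, Smyd5, Suz12 and Kmt5a (voom adjusted p = 0.0334, 0.0365, 0.0372 and 0.0424). Kmt5a, which monomethylates H4K20, had 76.4 TPM in R206H and 91.1 TPM in wild type, and Kmt5c, which makes the trimethyl mark on the same residue, 19.5 and 14.6 TPM. The 45 genes included 10 subunits of Polycomb repressive complex 2, the H3K27 writer, so these are counted above too. None of the 10 passed with limma, and voom called 1, Suz12, or 10% against 8.73% of all genes. At an unadjusted limma p under 0.05 there were 3, all lower in R206H, against 11.7% of all genes. Groups without overlap numbered 6 of the 10, all lower, against 15% of all genes, and 2 of 10 log2 changes were positive, against 53.6% of all genes. The catalytic subunit Ezh2 had 31.6 TPM in R206H and 35.1 TPM in wild type (log2 change -0.15).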

How the data were processed

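Total RNA of passage 0 fibroblasts, without its ribosomal part, was sequenced as read pairs of 150 bp, per the labels' protocols. The authors deposited TPM for 49315 Ensembl genes, and each library sums to 1000000. DESeq2, featureCounts, Subread, STAR and Trimmomatic, and the build names GRCm38 and mm10, are listed in the submitters' processing notes. No source used here gives the annotation release, the gene lengths or the strand setting, so reads of a gene and of its antisense or overlapping neighbour may be mixed.

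The filter kept 14818 genes that reached TPM 1 in 3 or more of the 6 libraries. They were fitted with limma 3.58.1 on log2(TPM + 1) (lmFit, eBayes with trend, no covariate, two-sided, R 4.3.3), with Benjamini-Hochberg adjustment over all of them at 0.05. Fold changes on this scale understate those of low genes. Reads were rebuilt from TPM with GENCODE M21 exon lengths (GRCm38): 91.2% to 91.5% of values under 100 reads were whole within 0.05. Of the genes, 259 had no length. limma voom ran on these reads for 14785 genes. The tests were checked on simulated data. Scripts used Python 3.11.15, pandas 2.3.3, scipy 1.17.1 and matplotlib 3.10.9.

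The members and lists were chosen with earlier results of these data known. Values per library are given for members with an unadjusted p under 0.05 and groups that did not overlap, for the highest and lowest member of each role, and for X-linked members with Y-linked homologues. Kmt2e, Prdm16, Setd1a, Phf8 and Suv39h1 were added after their values were seen. Roles and residues were assigned from general knowledge, and sets were described without a test. Alternatives were other pseudocounts, filters and scaling, no trend, the replicate number as a block, single libraries left out and voom. Added after seeing the data were leaving out library 2 of both genotypes and Y-linked RNA as a covariate.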

Additional observations from a re-analysis of the deposited data

How the results depend on the processing

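The count of members past the threshold was 0 in the reported fit, 0 to 1 with each library left out and 4 with voom. It was 0 under pseudocounts of 0.1 and 5, no filter, median-of-ratios scaling, no trend, a filter at TPM 5 and either treatment of library 2. Of all genes, 303 passed in the reported fit, 1290 with voom and 0 to 722 with each library left out. With no filter 2 passed, with Y-linked RNA as a covariate 2, without library 2 of both genotypes 0, and without the trend 27. Where almost no gene passed, a count of 0 members could hardly have differed and says little about the members. The count at an unadjusted p under 0.05 was 9 of 43, and 5 to 10 with each library left out (17.3% to 27.2% of all genes). It was 3 without library 2 of both genotypes (13.04% of all genes in that fit, which has 4 libraries). Groups that did not overlap numbered 11, or 11 to 23 with each library left out (38.7% to 48.6% of all genes), where fewer libraries make overlap less likely. The median log2 change of 0.06 ran from -0.0076 to 0.078 with each library left out and was -0.0075 without library 2 of both genotypes. Writers minus erasers was -0.11, or -0.19 to -0.084 with each library left out. Of 127 values of the 8 members shown by library under the alternatives, none reversed, 122 stayed on their side of the threshold and 5 passed it, 4 of them with voom and the other for Kdm5b without wild-type library 1. The filter at TPM 5 left out Smyd3, Prdm16 and Kdm7a.

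Same-numbered libraries did not deviate together (correlations of 0.018, 0.06 and -0.028 for numbers 1, 2 and 3), so the numbers were not taken as pairs. With the replicate block, 0 members passed and 7 had an unadjusted p under 0.05, the groups that did not overlap stayed at 11, and 0 of all genes passed against 303 without it. The causes of these shifts were not tested.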
